A study of Ovis aries with 15 samples.

Results

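The 33 genes described here are expressed by the cells that line blood vessels. They were chosen by name, with earlier results of these data known, from the 31411 genes of a count table of fetal sheep liver. They comprised 17 general endothelial genes, 8 genes listed for the liver sinusoid and 8 genes listed for vessels with a continuous lining. Of the last group, PLVAP in fetal liver also marks sinusoids. All 33 were present in the table, and all 33 passed the filter on low counts that left 16977 genes for testing. The study followed the liver transcriptome of the sheep fetus through late gestation by RNA sequencing of poly(A)-selected libraries from whole liver. Tissue was taken at gestational day (GD) 100, 124 and 144, with 4, 5 and 6 libraries, so that the intervals were 24 and 20 days. The labels give the stage and the tissue for each group and name no treatment, breed or sex. They also do not say that the libraries came from separate fetuses, so the p-values measure the spread between these libraries, which may be technical. The sample codes begin with different letters at different stages, and a cohort that follows those codes cannot be told apart from the stage.

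Liver sinusoids are wide capillaries between cords of hepatocytes. Their endothelium has open pores and no complete basement membrane, and it clears macromolecules from blood through scavenger receptors such as the stabilins. Arteries, portal and central veins have a continuous endothelium, which stores von Willebrand factor and is sealed by tight junctions. In the fetus the liver is also a site of blood formation, and endothelial growth depends on vascular endothelial growth factor (VEGF), angiopoietin, Notch and bone morphogenetic protein (BMP) signals.

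Library totals ran from 24215612 to 38247295 counts. Levels are given in counts-per-million units (CPM) after scaling by the trimmed mean of M values (TMM). A floor of 3 counts lay between 0.0797 and 0.128 CPM and covers counting error only, and 26 of the 33 genes had at least 100 counts in every library. The 8 hepatocyte markers, among them ALB, were all tested, and their sum ranged at GD100 from 31131 to 103797 CPM, at GD124 from 122760 to 151763 CPM and at GD144 from 102622 to 144647 CPM. GD100 replicates 2, 3 and 4 differed from the rest: 10.6, 10.6 and 10.8% of their deposited values were fractional against 5.09 to 6.2% in the other libraries. Results were therefore also computed with replicate 1 alone standing for GD100. GD144 replicate 3 stood apart in its erythroid markers, which summed to 816 CPM against 74.2 to 134 CPM in the other GD144 libraries, and it held the lowest GD144 level of 24 of the 33 genes. PECAM1, KDR, TEK, ENG, SOX18, NOS3, STAB1, GATA4, SOX17 and PLVAP, 10 of the 33, overlap another gene in the RefSeq annotation of ARS-UI_Ramb_v3.0. Whether counting used the strand is not given in the sources used here, and the values of these 10 genes are uncertain to that extent.

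Most of the endothelial genes stood higher at GD144 than before. Between GD124 and GD144, 21 of the 33 genes rose and 0 fell, with all 33 log2 fold changes above 0 and a median of 0.76. Between GD100 and GD124, 9 rose and 3 fell, with a median log2 fold change of 0.26. Over the whole span from GD100 to GD144, 23 rose, 1 fell and the median was 0.96. The calls are from 1 edgeR quasi-likelihood fit of all 15 libraries, at a Benjamini-Hochberg adjusted p of at most 0.05 over all genes tested. Of all genes tested, 16.6% rose and 17.4% fell from GD100 to GD124, 12.1% rose and 15.4% fell from GD124 to GD144, and 27.1% rose and 27.9% fell from GD100 to GD144. The median log2 fold change of all genes tested was 0.02, -0.01 and 0.03 in that order. Because the 33 genes were chosen with earlier results of these data known, their counts describe the chosen set alone.

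A stricter description counts the genes whose libraries did not overlap between stages. From GD124 to GD144 every GD144 library stood above every GD124 library for 13 of the 33 genes and below for 0, against 7.81% and 11% of all genes tested. From GD100 to GD144 the counts were 20 higher and 0 lower, against 19.2% and 20.8%. From GD100 to GD124 they were 1 higher and 2 lower, against 11.6% and 12.6%. The earlier interval therefore held few separated genes, at shares below those of all genes. The intervals share the GD124 libraries, and the difference between them was not tested.

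Scaling touched the earlier interval in particular. With total counts alone as the scale, the median of all genes from GD100 to GD124 was -0.16 in place of 0.02, the split of all calls was 1805 higher and 4055 lower in place of 2825 and 2949, and 4 of the 33 genes rose in place of 9. From GD124 to GD144 that scale gave 2520 higher and 2138 lower calls over all genes in place of 2046 and 2617.

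**Figure D1:**
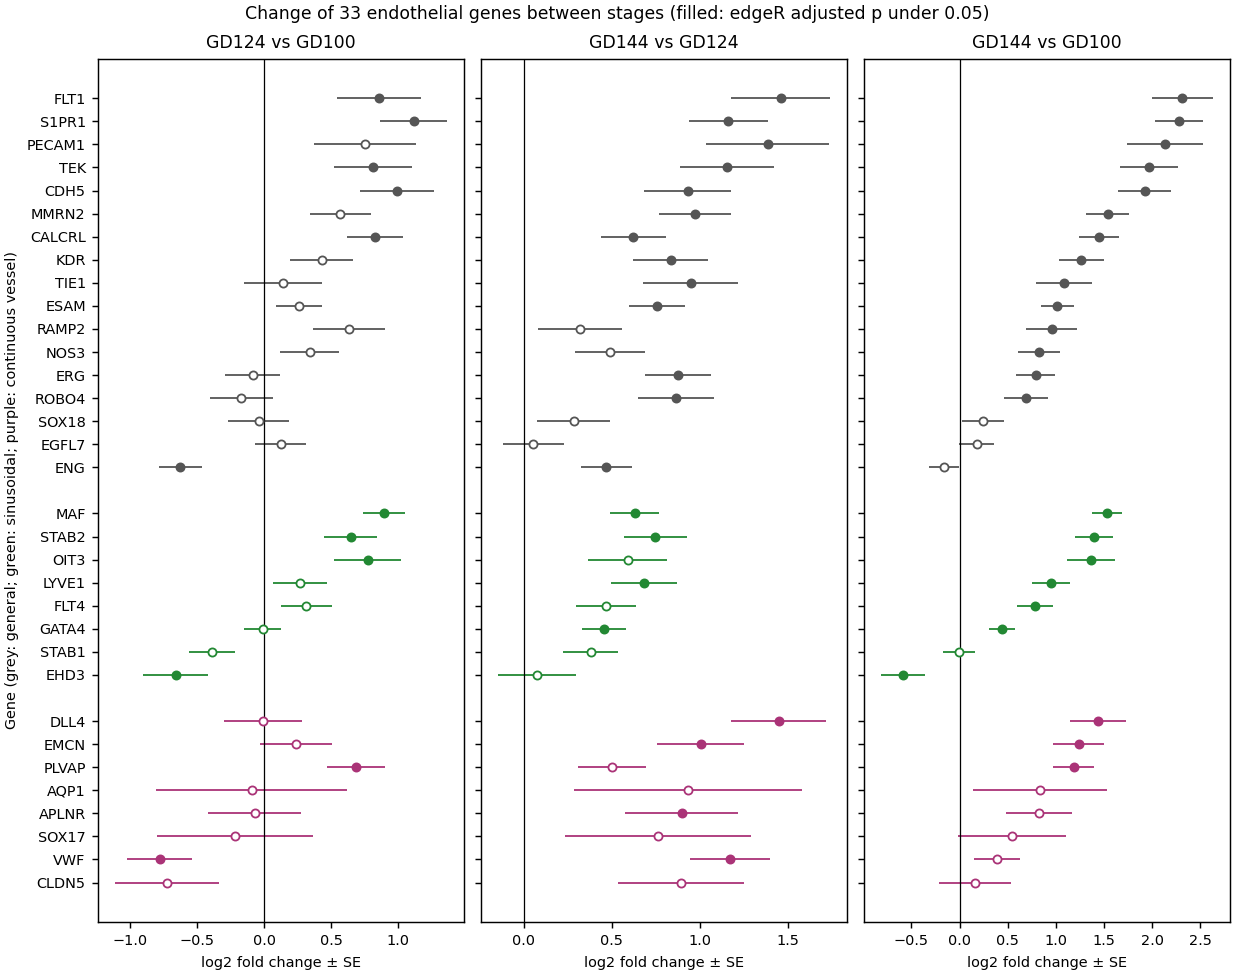
Log2 fold change ± SE of the 33 genes (rows, grouped by role) in the 3 comparisons, from the edgeR fit; filled points passed an adjusted p of 0.05. In the comparison of GD144 with GD124 all 33 points lie to the right of 0 and 21 are filled.

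Other cells of the liver moved over the same stages. The summed level of 10 erythroid markers was 4134 to 10564 CPM at GD100, 1672 to 3403 CPM at GD124 and 74.2 to 816 CPM at GD144. Of these markers, 2 fell and 0 rose in the earlier interval, and all 10 fell in the later one. Their median log2 fold change in the earlier interval was -1.66. For 8 of the 10, every GD124 library lay below every GD100 library, against 12.6% of all genes tested. The 10 macrophage markers summed to 92.4 to 399 CPM, 348 to 590.1 CPM and 413 to 755 CPM, with 7 rising and 1 falling in the earlier interval and 2 rising in the later one. The 15 stellate and mesenchymal markers summed to 814 to 1186 CPM, 1223 to 1584 CPM and 1179 to 2011 CPM, with 4 and then 7 rising. Beside these counts, 16.6% of all genes tested rose and 17.4% fell in the earlier interval, and 12.1% and 15.4% in the later one. The 33 endothelial genes themselves summed to 686 to 1113 CPM, 779 to 1237 CPM and 1231 to 1736 CPM. None of these marker lists was at 0 in any library, and their part in the endothelial results was not tested. In bulk tissue, a change in the number of endothelial cells and a change in RNA per cell cannot be told apart.

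**Figure D2:**
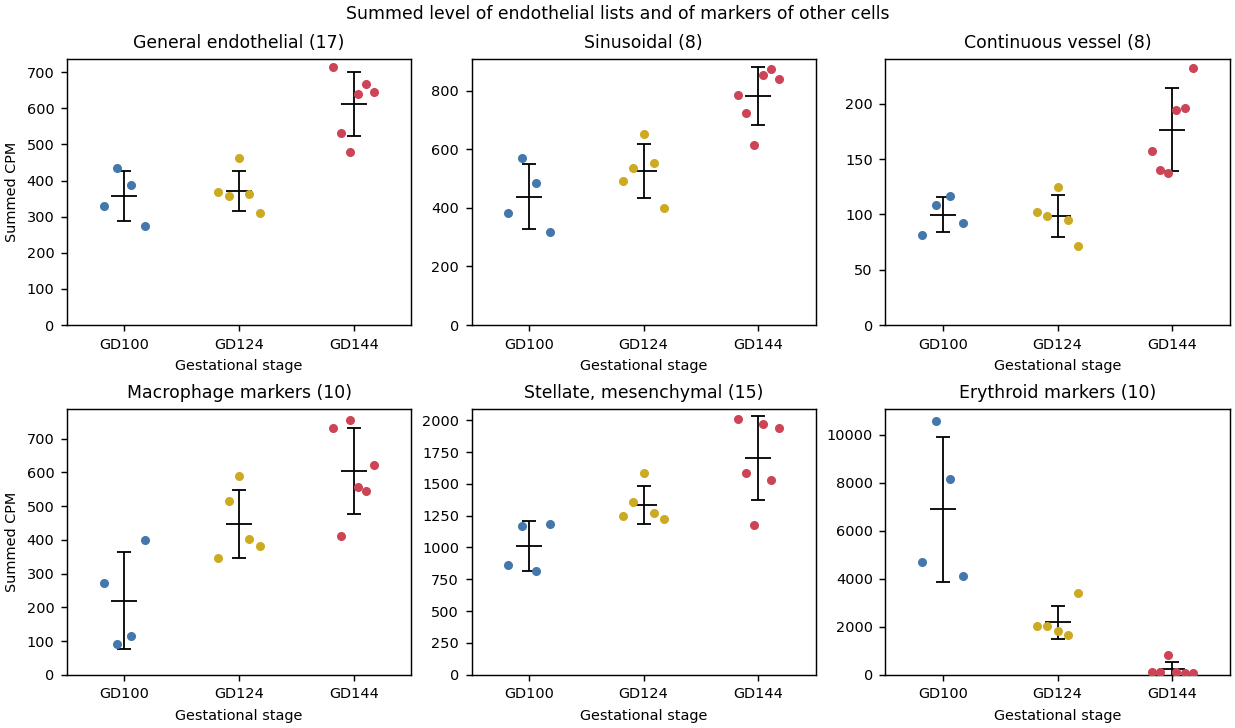
Summed CPM of the endothelial genes by role and of markers of macrophages, stellate or mesenchymal cells and erythroid cells; each point is 1 library and bars are mean ± SD. The general and continuous-vessel sums separate GD144 from both earlier stages, while the erythroid sum goes the other way.

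Among the general endothelial genes, 5 rose and 1 fell from GD100 to GD124, 13 rose and 0 fell from GD124 to GD144, and 14 rose and 0 fell over the whole span. The medians of the log2 fold change were 0.43, 0.86 and 1.08. Junction and adhesion genes come first. PECAM1, a homophilic adhesion molecule of endothelial cells and platelets, stood at 3.57, 20.9, 13.9 and 9.62 CPM in the GD100 libraries, at 18.2, 18, 34.4, 17.9 and 12.3 CPM at GD124, and between 41.5 and 66.3 CPM with a median of 51.4 CPM at GD144. GD144 was above every earlier library, while GD100 and GD124 overlapped. PECAM1 rose 2.61-fold from GD124 to GD144 (log2 1.38 ± 0.35 SE, edgeR adjusted p = 0.00826), while the earlier difference of 0.75 ± 0.38 had an adjusted p of 0.143. CDH5, the cadherin of endothelial adherens junctions, rose in both intervals, from 14 ± 4.73 CPM (SD, n = 4) through 27.8 ± 12.2 (n = 5) to 53.0 ± 8.68 CPM (n = 6), with edgeR adjusted p of 0.0119 and 0.0102. ESAM, a further junctional adhesion molecule, rose in the later interval, from 16.5 ± 2.11 to 27.9 ± 4.66 CPM with an edgeR adjusted p of 0.0021.

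The VEGF receptors lay in the same group. FLT1, which binds VEGF-A tightly and limits its supply, stood at 1.67, 7.06, 4.66 and 3.44 CPM at GD100 and at 8.5, 5.91, 10.2, 7.96 and 5.42 CPM at GD124. At GD144 it lay between 15.1 and 26.2 CPM with a median of 21.6 CPM, above all earlier libraries. FLT1 rose 2.74-fold in the later interval (log2 1.46 ± 0.28, edgeR adjusted p = 0.00113) and 4.97-fold over the whole span (log2 2.31 ± 0.32, adjusted p = 1.56e-05). Its rise in the earlier interval (log2 0.86 ± 0.31, edgeR adjusted p = 0.0438) was lost in 15 of 21 alternatives, with adjusted p up to 0.149, among them the fits without GD100 replicate 1, 3 or 4, GD124 replicate 1, 3 or 4, or GD144 replicate 1, 2, 4, 5 or 6. KDR, the main signalling receptor for VEGF-A, rose in the later interval, from 40.7 ± 10.5 to 72.5 ± 13.7 CPM (log2 0.83 ± 0.21, edgeR adjusted p = 0.00822).

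The TIE receptors followed. TEK, the angiopoietin receptor also called TIE2, stood at 6.00, 19.2, 10.1 and 7.94 CPM at GD100, at 18.2, 20.9, 27.4, 16.3 and 12.2 CPM at GD124, and between 30.8 and 52.2 CPM with a median of 43.7 CPM at GD144. Its GD144 libraries lay above all others, and the earlier stages overlapped. TEK rose 2.22-fold in the later interval (log2 1.15 ± 0.26, edgeR adjusted p = 0.00426) and 3.91-fold over the whole span (adjusted p = 4.25e-05). The earlier rise of TEK (log2 0.81 ± 0.29, edgeR adjusted p = 0.0429) was lost in 15 of 21 alternatives, with adjusted p up to 0.159, among them the fits without GD100 replicate 1, 3 or 4, GD124 replicate 1, 2, 3 or 4, or GD144 replicate 1, 4, 5 or 6. TIE1, its orphan partner, rose from 11.4 ± 3.74 to 22.1 ± 3.79 CPM in the later interval (edgeR adjusted p = 0.0147, and 0.0648 with the replicate block).

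Of the receptors for other circulating ligands, S1PR1 and CALCRL rose in both intervals and RAMP2 in neither. S1PR1, a receptor for sphingosine 1-phosphate that stabilises vessels, stood at 1.90, 5.27, 3.35 and 2.74 CPM at GD100, at 8.15, 7.42, 8.53, 6.69 and 5.16 CPM at GD124, and between 12.1 and 18.8 CPM with a median of 17.4 CPM at GD144. Only the highest GD100 library and the lowest GD124 library overlapped. S1PR1 rose 2.17-fold and then 2.23-fold (log2 1.12 ± 0.25 and 1.16 ± 0.22, edgeR adjusted p = 0.00324 and 0.00104), which made 4.85-fold over the whole span (adjusted p = 1.8e-06). CALCRL, which forms the adrenomedullin receptor together with RAMP2, rose from 9.21 ± 2.06 through 16.3 ± 3.69 to 25.1 ± 5.33 CPM (edgeR adjusted p = 0.00706 and 0.0201). The later call of CALCRL was lost with adjusted p up to 0.0604 in the fit without GD124 replicate 2, in that without GD124 replicate 5 and with the replicate block. RAMP2 stood at 16.3 ± 7.64, 25.3 ± 4.74 and 31.6 ± 4.75 CPM and rose over the whole span alone (edgeR adjusted p = 0.00552).

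ENG was the exception. Endoglin, a co-receptor for BMP9 and related ligands on endothelial cells that some blood progenitors also carry, stood at 180.4, 180.3, 175 and 128 CPM at GD100 and at 106, 107, 112, 95.0 and 116 CPM at GD124. Every GD100 library lay above every GD124 library. At GD144 it ranged from 116 to 196 CPM with a median of 142 CPM. ENG fell by 0.63 ± 0.16 on the log2 scale (edgeR adjusted p = 0.00743) and then rose 1.38-fold (log2 0.47 ± 0.15, adjusted p = 0.0255), and the GD144 level differed from that of GD100 by -0.16 ± 0.16 (adjusted p = 0.401). The later rise was lost, with edgeR adjusted p up to 0.0794, without GD124 replicate 1, 2 or 4, without GD144 replicate 6 and with the replicate block. Of 7 blood progenitor markers tested, 2 fell and 1 rose in the earlier interval, where 17.4% of all genes tested fell and 16.6% rose. Their median log2 fold change was -1.16, against 0.02 for all genes tested. The libraries of both stages did not overlap for 2 of these markers that were lower and 1 that was higher, against 12.6% and 11.6% of all genes tested. The part of these markers' cells in the fall of ENG was not tested.

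The other general endothelial genes rose or gave no call. ERG, an ETS transcription factor that maintains endothelial identity, stood at 8.18 ± 2.5, 7.70 ± 1.32 and 14.1 ± 2.23 CPM and rose in the later interval (edgeR adjusted p = 0.00249). ROBO4, an endothelial receptor of the roundabout family, stood at 7.42 ± 2.52, 6.59 ± 0.768 and 12 ± 2.74 CPM and rose likewise (edgeR adjusted p = 0.00658), and its call over the whole span (adjusted p = 0.0167) was lost without GD100 replicate 4, with total counts and with the replicate block, at up to 0.0857. MMRN2, a matrix protein around endothelium, rose from 9.76 ± 1.69 to 19.1 ± 3.94 CPM in the later interval (edgeR adjusted p = 0.00222). NOS3, the endothelial nitric oxide synthase, rose over the whole span alone, from 6.60 ± 2.1 to 11.7 ± 2.38 CPM (edgeR adjusted p = 0.00388). EGFL7, a secreted endothelial protein, stood at 30.1 ± 7.45, 32.8 ± 6.16 and 34.1 ± 6.6 CPM, and SOX18, a transcription factor of endothelium, at 7.38 ± 2.5, 7.17 ± 0.851 and 8.74 ± 1.94 CPM. Neither EGFL7 nor SOX18 was called in any comparison, with edgeR adjusted p of at least 0.335.

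**Figure D3:**
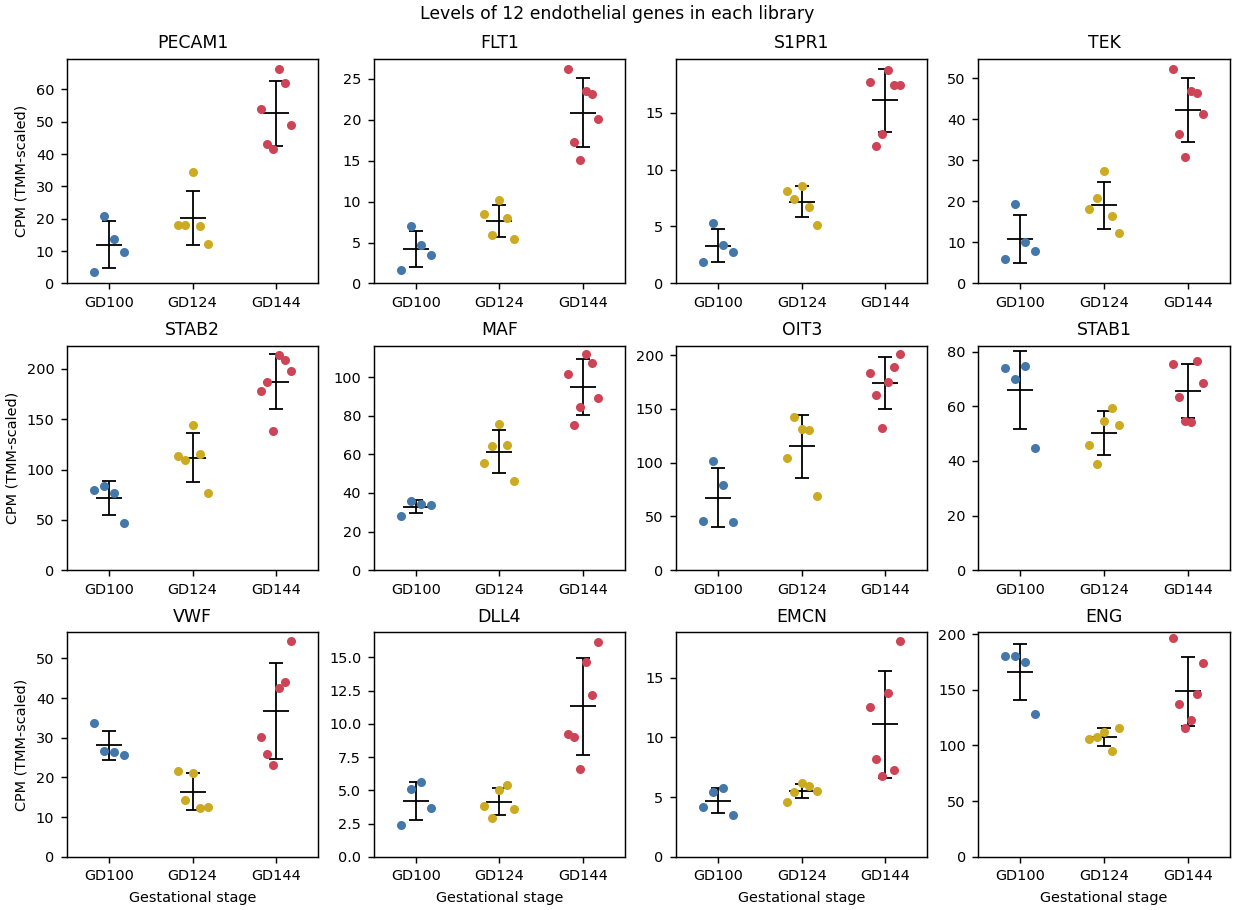
TMM-scaled CPM of 12 endothelial genes in each library by stage, with mean ± SD bars. The 6 GD144 libraries of PECAM1, FLT1, S1PR1 and TEK lie above all others, STAB1 stays within 38.8 to 76.6 CPM, and VWF and ENG are lowest at GD124.

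The sinusoidal genes divided into 6 that rose over the whole span, 1 that fell and 1 with no call. By interval, 3 rose and 1 fell from GD100 to GD124, and 4 rose and 0 fell from GD124 to GD144, with medians of 0.29 and 0.53 and a median of 0.87 over the whole span. From GD124 to GD144 none of the 8 separated its libraries fully, where 7.81% of all genes tested separated higher and 11% lower. With 8 genes, that absence is not read as a trait of the group. From GD100 to GD144, 5 of 8 separated higher, against 19.2% of all genes tested. MAF, a transcription factor that drives sinusoidal identity and is also expressed by macrophages, stood at 28.1, 35.8, 34.5 and 33.5 CPM at GD100 and at 55.7, 64.5, 75.8, 65.0 and 46.2 CPM at GD124. At GD144 it lay between 75.1 and 112 CPM with a median of 95.4 CPM. MAF was the single gene of the 33 with every GD124 library above every GD100 library. It rose 1.86-fold (log2 0.90 ± 0.16, edgeR adjusted p = 0.000693) and then by 0.63 ± 0.14 (adjusted p = 0.00327), 2.88-fold over the whole span (adjusted p = 7.59e-07). The macrophage marker sum given above rose over the same stages, and its part in the MAF values was not tested.

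The scavenger receptors of the stabilin family went apart. STAB2, which takes up hyaluronan, stood at 79.2, 83.6, 76.3 and 46.4 CPM at GD100, at 113, 109.9, 144, 115 and 76.4 CPM at GD124, and between 139 and 214 CPM with a median of 193 CPM at GD144. All GD144 libraries were above the GD100 libraries, and 1 GD124 library reached into the GD144 range. STAB2 rose in both intervals (log2 0.65 ± 0.20 and 0.75 ± 0.18, edgeR adjusted p = 0.0191 and 0.00534), 2.62-fold over the whole span (adjusted p = 1.94e-05). Its earlier call was lost without GD100 replicate 4, without GD124 replicate 3, with total counts and with GD100 replicate 1 alone, at edgeR adjusted p up to 0.253. STAB1, which clears modified proteins and is also found on macrophages, stood at 74.0, 70.0, 75.0 and 44.9 CPM at GD100, at 46.0, 38.8, 54.7, 59.4 and 53.1 CPM at GD124, and between 54.3 and 76.6 CPM at GD144. Its libraries overlapped between all stages, and its log2 differences of -0.39 ± 0.17, 0.38 ± 0.16 and -0.01 ± 0.16 gave edgeR adjusted p of 0.0887, 0.0809 and 0.97.

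LYVE1, a hyaluronan receptor shared by sinusoids and lymphatic vessels, stood at 68.2, 94.8, 76.1 and 64.0 CPM at GD100, at 79.8, 92.3, 128, 92.6 and 63.1 CPM at GD124, and between 116 and 183 CPM with a median of 145 CPM at GD144. GD144 lay above GD100 in every library and overlapped GD124 through GD124 replicate 3. LYVE1 rose in the later interval (log2 0.68 ± 0.19, edgeR adjusted p = 0.0116, and 0.0539 with the replicate block) and 1.93-fold over the whole span (adjusted p = 0.000768). OIT3, a secreted protein that marks sinusoidal endothelium, stood at 45.3, 101, 78.7 and 44.9 CPM at GD100 and at 104, 142, 131, 130.3 and 69.3 CPM at GD124. At GD144 OIT3 lay between 132 and 201 CPM with a median of 179 CPM, above all GD100 libraries. It rose 2.57-fold over the whole span (log2 1.36 ± 0.25, edgeR adjusted p = 0.000203), while its later difference of 0.59 ± 0.22 had an adjusted p of 0.0601. The rise of OIT3 in the earlier interval (log2 0.77 ± 0.25, edgeR adjusted p = 0.025) was lost without GD100 replicate 1 or 4, without GD124 replicate 2, 3 or 4 and with total counts, at up to 0.11.

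FLT4, the receptor for VEGF-C in sinusoidal and lymphatic endothelium, stood at 15.6 ± 2.92, 19.4 ± 4.29 and 26.9 ± 4.65 CPM. It rose over the whole span (log2 0.78 ± 0.18, edgeR adjusted p = 0.00177, and 0.0681 with GD100 replicate 1 alone), and in the later interval its adjusted p was 0.0501. Of 3 lymphatic vessel markers, 2 were tested, and both rose over the whole span, where 27.1% of all genes tested rose. Their sum of 42.4 to 76.4 CPM at GD100, 71.9 to 112 CPM at GD124 and 88.4 to 153 CPM at GD144 holds RELN, which stellate cells also express, and its part in the values of LYVE1 and FLT4 was not tested. GATA4, a transcription factor needed for the sinusoidal phenotype and also expressed by stellate cells, stood at 20.3 ± 2.83, 20.1 ± 1.76 and 27.6 ± 4.09 CPM. GATA4 rose in the later interval (log2 0.45 ± 0.13, edgeR adjusted p = 0.0126, and 0.0649 with the replicate block) and over the whole span (adjusted p = 0.0103, and up to 0.0818 with total counts or with GD100 replicate 1 alone).

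EHD3, an endocytic recycling protein abundant in sinusoidal endothelium, was the gene that fell. It stood at 50.9, 142, 107 and 55.0 CPM at GD100, at 52.6, 52.4, 71.7, 47.5 and 56.1 CPM at GD124, and between 49.3 and 66.8 CPM at GD144. The high values were those of GD100 replicates 2 and 3, and the stages overlapped throughout. The same libraries had the highest erythroid sums of GD100, 10564 and 8168 CPM against 4695 and 4134 CPM in replicates 1 and 4, and the lowest hepatocyte sums, 31131 and 35662 CPM against 77588 and 103797 CPM, and the part of these cells in the EHD3 values was not tested. EHD3 fell by 0.66 ± 0.24 on the log2 scale from GD100 to GD124 (edgeR adjusted p = 0.0448) and stood 0.59 lower at GD144 than at GD100 (log2 -0.59 ± 0.23, adjusted p = 0.041). These calls rested on GD100 replicates 2 and 3: leaving out either ended both calls. The earlier call was also lost without GD124 replicate 1, 2, 4 or 5 or GD144 replicate 2, 5 or 6, and the call over the whole span without GD144 replicate 2, 3, 4 or 6. With replicate 1 alone standing for GD100 the sign turned, to log2 0.14 (edgeR adjusted p = 0.697) and 0.22 (adjusted p = 0.444).

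Among the genes of continuous vessels, 1 rose and 1 fell from GD100 to GD124, 4 rose and 0 fell from GD124 to GD144, and 3 rose and 0 fell over the whole span. The medians were -0.08, 0.91 and 0.83. DLL4, a Notch ligand of arterial and sprouting endothelium, stood at 2.40, 5.06, 5.61 and 3.64 CPM at GD100, at 3.79, 2.92, 5.04, 5.38 and 3.63 CPM at GD124, and between 6.61 and 16.2 CPM with a median of 10.7 CPM at GD144. The earlier stages overlapped, and GD144 stood above both. DLL4 rose 2.72-fold in the later interval (log2 1.45 ± 0.27, edgeR adjusted p = 0.000841), after a difference of -0.01 in the earlier one (adjusted p = 0.99). EMCN, a sialomucin of veins and capillaries, stood at 4.14, 5.41, 5.75 and 3.48 CPM at GD100 and at 4.61, 5.40, 6.21, 5.90 and 5.51 CPM at GD124. At GD144 EMCN lay between 6.74 and 18.1 CPM with a median of 10.4 CPM, above every earlier library. It rose in the later interval (edgeR adjusted p = 0.00602) and 2.36-fold over the whole span (adjusted p = 0.000904).

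VWF, the clotting glycoprotein stored in continuous endothelium and in platelets, fell and then rose. It stood at 33.6, 26.6, 26.5 and 25.6 CPM at GD100, at 21.7, 14.4, 21.0, 12.2 and 12.4 CPM at GD124, and between 23.1 and 54.4 CPM with a median of 36.4 CPM at GD144. The GD124 libraries lay below all others, and GD100 and GD144 overlapped. VWF fell by 0.78 ± 0.24 on the log2 scale (edgeR adjusted p = 0.0215) and rose 2.25-fold in the later interval (log2 1.17 ± 0.23, adjusted p = 0.00117). The fall was lost without GD100 replicate 1, without GD124 replicate 4 and with GD100 replicate 1 alone, at edgeR adjusted p up to 0.0977. Of 7 megakaryocyte and platelet markers, 5 fell in the earlier interval, where 17.4% of all genes tested fell. In the later one 6 of these markers fell and 1, GP1BA, rose, beside 15.4% falling and 12.1% rising. Their summed level was 145 to 187 CPM at GD100, 46.1 to 80.7 CPM at GD124 and 120 to 185 CPM at GD144, of which GP1BA, a platelet receptor for VWF, held 144 ± 29.1 CPM at GD144 and GP9, its partner, 0.414 ± 0.515 CPM. The part of these cells in the VWF values was not tested.

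PLVAP, which forms the diaphragms of fenestrae and caveolae and in fetal liver also marks sinusoids, stood at 26.7, 17.5, 20.2 and 33.6 CPM at GD100, at 27.7, 45.0, 57.7, 37.7 and 29.1 CPM at GD124, and between 47.8 and 63.8 CPM with a median of 56.0 CPM at GD144. GD144 was above every GD100 library and overlapped GD124 through GD124 replicate 3. PLVAP rose in the earlier interval (log2 0.69 ± 0.22, edgeR adjusted p = 0.0225) and 2.28-fold over the whole span (adjusted p = 0.00019), and the later difference of 0.50 ± 0.19 had an adjusted p of 0.0662. Its earlier call was lost without GD100 replicate 2 or 3, without GD124 replicate 2 or 3, with total counts and with GD100 replicate 1 alone, at edgeR adjusted p up to 0.241. APLNR, the apelin receptor, stood at 27.0 ± 14, 25.7 ± 7.55 and 47.8 ± 16.3 CPM. Its later rise (log2 0.90 ± 0.32, edgeR adjusted p = 0.0485) was lost in 10 of 21 alternatives, at up to 0.211, 8 of which left out GD124 replicate 2, 3, 4 or 5 or GD144 replicate 2, 4, 5 or 6.

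The remaining 3 continuous-vessel genes gave no call. CLDN5, the tight junction claudin of endothelium, stood at 9.69 ± 6.19, 5.84 ± 1.72 and 10.9 ± 3.42 CPM, with edgeR adjusted p of 0.162, 0.0768 and 0.734. SOX17, an arterial transcription factor, had 2 to 30 counts per library and stood at 0.464 ± 0.344, 0.395 ± 0.246 and 0.676 ± 0.192 CPM. AQP1, a water channel, had 1 to 123 counts and stood at 1.24 ± 1.37, 1.16 ± 0.627 and 2.21 ± 0.767 CPM, with the single count in GD100 replicate 1. The depth limits what can be seen for SOX17 and AQP1, whose edgeR adjusted p were at least 0.31 for both. With replicate 1 alone standing for GD100, AQP1 turned from a log2 difference of -0.09 to 5.03 in the earlier interval (edgeR adjusted p = 0.0147), a value set by that 1 count.

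Read by gene, 7 of the 33 rose in both intervals and over the whole span, and 11 rose in the later interval and over the whole span without a call in the earlier one. A further 2 rose in the earlier interval and over the whole span, 3 rose over the whole span alone, and 1, APLNR, rose in the later interval alone. ENG and VWF fell and then rose, EHD3 fell, and 6 were never called: EGFL7, SOX18, STAB1, CLDN5, SOX17 and AQP1. The highest stage mean was at GD144 for 30 genes and at GD100 for 3, and the lowest was at GD100 for 20 and at GD124 for 13. The spread between libraries of a stage was a median coefficient of variation of 33.9% at GD100, 22.1% at GD124 and 19.1% at GD144. The GD100 means are therefore the least precise, and the source of that spread was not tested. GD100 replicates 1 and 4 held the lowest GD100 level of 18 and 14 of the 33 genes, and GD100 replicates 2 and 3 the highest of 22 and 7. As given for EHD3, replicates 2 and 3 also had the highest erythroid and lowest hepatocyte sums of GD100. The part of these cells in the GD100 values of the 33 genes was not tested. At GD124, replicate 3 held the highest level of 22 and replicate 5 the lowest of 21.

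Sinusoidal and continuous-vessel genes were compared within each library as the mean log2 CPM of the 8 sinusoidal genes less that of the 8 continuous-vessel genes. PLVAP was counted in the second group, although in fetal liver it also marks sinusoids. Levels of different genes are not compared here, because they were not scaled for transcript length, and only the movement of this difference between stages is read. It was 3.06 ± 0.48 (SD, n = 4) at GD100, 3.29 ± 0.10 (n = 5) at GD124 and 2.85 ± 0.18 (n = 6) at GD144. The GD124 libraries, at 3.18 to 3.43, lay above all GD144 libraries, at 2.57 to 3.13. The lower value at GD144 is that of these 8 and 8 genes, and the difference was not computed for the further lists of other genes. Median log2 fold changes from GD124 to GD144 were 0.53, 0.86 and 0.91 for the sinusoidal, general and continuous-vessel members. The further lists gave another order, with 1.08 for 8 other sinusoidal, 0.67 for 16 other general endothelial and 0.43 for 15 other continuous-vessel genes. At GD100 the value of replicate 1 was 3.78, and the other 3 libraries lay at 2.74 to 2.91. In replicate 1 AQP1 had 1 count, and CLDN5, SOX17, DLL4 and APLNR also stood lowest of the GD100 libraries, while EMCN, PLVAP and VWF did not. The difference between sinusoidal and general endothelial genes moved from 2.02 ± 0.24 through 1.81 ± 0.08 to 1.52 ± 0.08, with GD144 at 1.39 to 1.65 below GD124 at 1.70 to 1.89. Continuous-vessel less general genes gave -1.04 ± 0.25, -1.48 ± 0.04 and -1.33 ± 0.17, and these overlapped between GD124 and GD144. These are descriptions of a chosen set of genes, with no test.

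**Figure D4:**
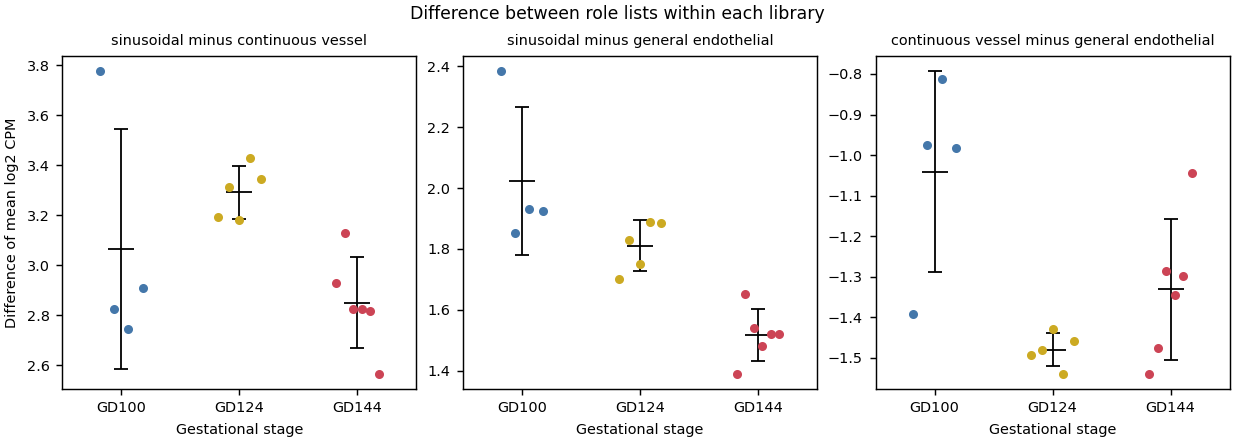
Differences of mean log2 CPM between the role groups in each library, by stage, with mean ± SD bars. The 8 sinusoidal members stood lower relative to the members of both other groups at GD144 than at GD124. The further lists of other genes are not shown, and this difference was not computed for them. GD100 replicate 1 lies apart at 3.78 in the first panel.

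Ratios of related genes within a library do not depend on the scaling. A set of 7 pairs is described here with no test, because the pairs were chosen after their values were seen, and 3 of them share the VEGF receptors. The log2 ratio of STAB2 to STAB1 was 0.11 ± 0.10 at GD100, 1.14 ± 0.40 at GD124 and 1.51 ± 0.26 at GD144. GD100, at 0.03 to 0.26, did not overlap GD124, at 0.53 to 1.5, or GD144, at 1.23 to 1.98, while GD124 and GD144 overlapped. STAB1 is among the genes whose counts may include reads of a neighbour.

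Within the VEGF receptors, the log2 ratio of FLT1 to KDR was -2.95 ± 0.80, -2.42 ± 0.20 and -1.80 ± 0.11, with GD144 above every earlier library. That of FLT4 to FLT1 was 2.04 ± 0.84, 1.36 ± 0.24 and 0.37 ± 0.18, with GD144 below every earlier library. The log2 ratio of FLT4 to KDR differed by -0.15, -0.38 and -0.52 in the 3 comparisons, and its libraries overlapped in each. For TEK to TIE1 the log2 ratios were 0.05 ± 0.37, 0.75 ± 0.39 and 0.93 ± 0.21, and GD144 did not overlap GD100. The libraries of SOX17 to SOX18 and of CALCRL to RAMP2 overlapped in each comparison.

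**Figure D5:**
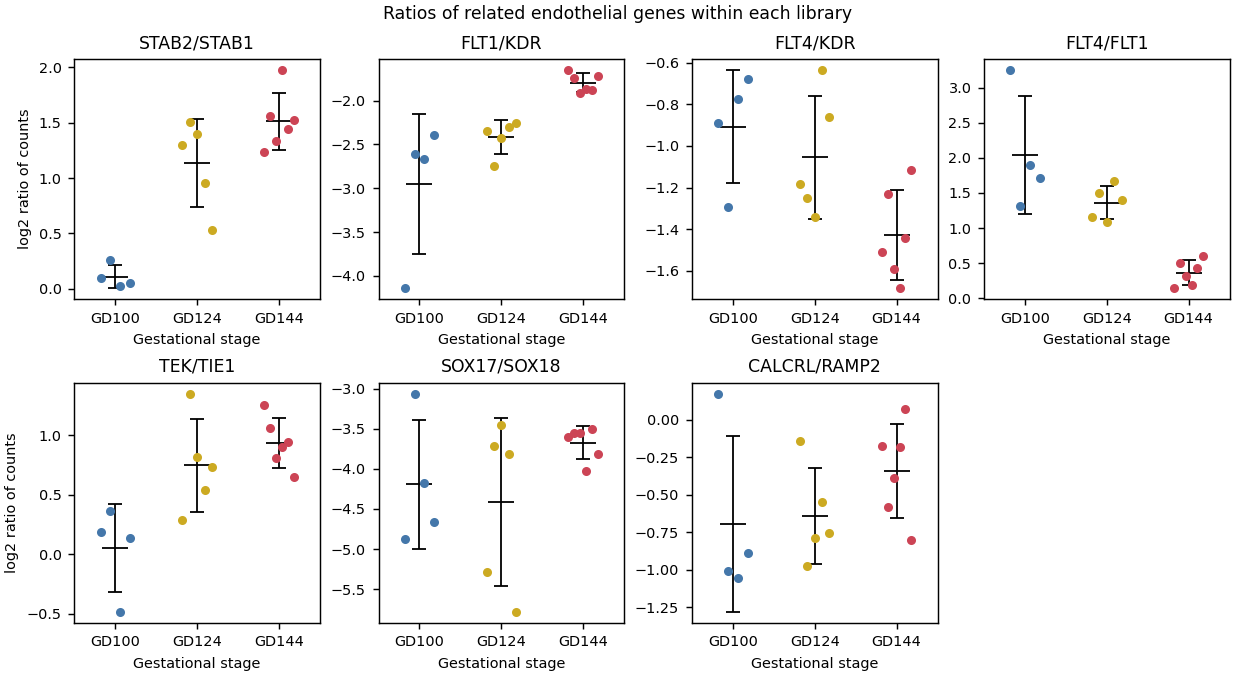
Log2 ratio of counts of 7 pairs of related endothelial genes within each library, by stage, with mean ± SD bars. STAB2/STAB1 separates GD100 from both later stages, and FLT1/KDR and FLT4/FLT1 separate GD144 from both earlier stages.

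Further genes of the same vessel types were read from lists written for each type. The counts of each list below stand beside 16.6% of all genes tested rising and 17.4% falling in the earlier interval, 12.1% and 15.4% in the later one, and 27.1% and 27.9% over the whole span. Of 8 other sinusoidal genes tested, 2 rose and 0 fell from GD100 to GD124, 7 rose and 0 fell from GD124 to GD144, and 6 rose and 0 fell over the whole span. F8, clotting factor VIII, which liver endothelium makes, stood at 7.30 ± 1.31, 13.6 ± 2.9 and 37.6 ± 8.53 CPM and rose in both intervals (log2 0.90 ± 0.20 and 1.47 ± 0.18, edgeR adjusted p = 0.0029 and 3.39e-05). MRC1, the mannose receptor of sinusoids and macrophages, rose from 13.0 ± 7.22 to 38.4 ± 11.8 CPM in the later interval (edgeR adjusted p = 0.0108). DNASE1L3, a secreted nuclease of sinusoidal endothelium, rose from 31.6 ± 8.23 to 58.4 ± 8.52 CPM (edgeR adjusted p = 0.0426). KCNN2 was called higher in the earlier interval alone. It stood at 2.34 to 4.89 CPM at GD100, 2.70 to 28.9 CPM at GD124 and 2.85 to 16.9 CPM at GD144. FCN3, of the same list, did not pass the filter and was not tested, with 0 to 54 counts per library at GD100 and 0 to 7 later.

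Of 16 other general endothelial genes tested, 2 rose and 3 fell in the earlier interval, 9 rose and 3 fell in the later one, and 10 rose and 2 fell over the whole span. PTPRB, the phosphatase that restrains TEK, rose in both intervals, from 11.8 ± 3.58 through 19.2 ± 3.47 to 54.1 ± 9.33 CPM (edgeR adjusted p = 0.0137 and 3.77e-05). CLEC14A, an endothelial lectin, rose from 5.89 ± 1.98 to 19.6 ± 2.87 CPM in the later interval, and CAV1, the coat protein of caveolae, from 0.782 ± 0.456 to 3.28 ± 1.49 CPM (edgeR adjusted p = 0.00193 and 0.00195). The genes that fell over the whole span were TAL1, from 284 ± 140.4 to 9.97 ± 8.6 CPM, and LYL1, from 53.9 ± 15.8 to 5.33 ± 2 CPM (edgeR adjusted p = 1.69e-06 and 1.49e-07). Both are transcription factors of blood formation as well as of endothelium, and the erythroid marker sum fell over the same stages, a change whose part in these values was not tested. SHANK3 fell in the earlier interval, from 22.2 ± 3.18 to 15.9 ± 2.24 CPM, and GIMAP4, also known in lymphocytes, in the later one, from 147 ± 87.6 to 34.1 ± 30.1 CPM.

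Of 15 other continuous-vessel genes tested, 2 rose and 2 fell in the earlier interval, 7 rose and 2 fell in the later one, and 7 rose and 3 fell over the whole span. THBD, thrombomodulin, the cell-surface anticoagulant, rose in both intervals, from 2.05 ± 0.739 through 5.81 ± 0.726 to 9.71 ± 1.21 CPM (edgeR adjusted p = 0.000337 and 0.0107). BMX, a kinase of arterial endothelium, rose 5.9-fold over the whole span to 1.67 ± 0.623 CPM (edgeR adjusted p = 0.000464). It had only 5 to 13 counts per library at GD100, near the floor. ICAM1, an adhesion molecule for leukocytes, rose 3.12-fold over the whole span to 19.1 ± 4.02 CPM (edgeR adjusted p = 0.000828). The arterial genes GJA5, GJA4 and EFNB2, the first 2 of them connexins and the third an ephrin ligand, rose 2.97-fold, 2.22-fold and 2.08-fold over the whole span with no overlap between libraries (edgeR adjusted p = 0.000213, 0.000157 and 0.00213). CD34, a sialomucin shared with blood progenitors, fell from 160.1 ± 56.1 through 40.7 ± 13.8 to 9.69 ± 2.66 CPM (edgeR adjusted p = 0.000237 and 4.5e-05). ACKR1, a chemokine scavenger of venules and of erythroid cells, fell from 9.01 ± 3.54 to 1.68 ± 0.669 CPM over the whole span, and SELP, the selectin of venules and platelets, from 2.23 ± 1.06 to 1.03 ± 0.291 CPM (edgeR adjusted p = 1.31e-05 and 0.0192). The fallers of this list are all known in blood cells too, and the part of those cells was not tested.

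Ligands and co-receptors of the VEGF and angiopoietin pathways numbered 10 tested, of which 1 rose and 0 fell in the earlier interval, 5 rose and 1 fell in the later one, and 6 rose and 1 fell over the whole span. VEGFA, the main ligand, stood at 103 ± 33.8, 103 ± 24 and 143 ± 15.7 CPM, with edgeR adjusted p of 0.0651 for the later difference. VEGFB, a ligand of FLT1, fell over the whole span from 23.8 ± 12.2 to 11.0 ± 3.05 CPM (edgeR adjusted p = 0.00251). ANGPT2, the context-dependent ligand of TEK, stood at 2.38 ± 0.932 and 2.43 ± 0.601 CPM and rose 3.53-fold to 8.56 ± 3.97 CPM at GD144 (edgeR adjusted p = 0.000612). ANGPT4, a further TEK ligand, rose 2.91-fold in the later interval (edgeR adjusted p = 0.00365). NRP1, a VEGF co-receptor, rose in both intervals, from 26.2 ± 6.12 through 50.3 ± 12 to 79.0 ± 17.2 CPM (edgeR adjusted p = 0.00285 and 0.0149).

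Of 12 Notch genes, 2 rose and 1 fell in the earlier interval, 7 rose and 0 fell in the later one, and 6 rose and 0 fell over the whole span. HEY1, a transcriptional repressor that Notch induces in endothelium, stood at 4.14, 3.49, 5.42 and 4.07 CPM at GD100, at 11.7, 9.26, 11.6, 9.26 and 13.0 CPM at GD124, and between 40.4 and 66.1 CPM with a median of 59.7 CPM at GD144. No library of HEY1 overlapped between stages. It rose 2.56-fold and then 5.17-fold (log2 1.35 ± 0.18 and 2.37 ± 0.16, edgeR adjusted p = 0.000143 and 1.86e-07), 13.2-fold over the whole span (adjusted p = 3.32e-09). The related targets HEYL and HES1 rose 2.37-fold and 2.53-fold over the whole span (edgeR adjusted p = 0.00249 and 0.0012). HEY2, a further target of the same family, stood at 5.12 ± 1.86, 3.09 ± 1.25 and 3.37 ± 1.07 CPM, with an edgeR adjusted p of 0.125 for its log2 difference of -0.60 ± 0.32 over the whole span. The receptor NOTCH1 went from 31.0 ± 6.37 CPM down to 22.3 ± 1.91 CPM and up to 29.6 ± 1.93 CPM (edgeR adjusted p = 0.0101 and 0.0159).

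Of 13 BMP pathway genes, 6 rose and 1 fell in the earlier interval, 3 rose and 1 fell in the later one, and 8 rose and 3 fell over the whole span. The ligand GDF2, or BMP9, ranged from 16.5 to 62.7 CPM at GD100, stood at 31.8 ± 5.76 CPM at GD124 and rose 1.72-fold to 54.6 ± 8.89 CPM at GD144 (edgeR adjusted p = 0.0307), and BMP10 rose 1.56-fold in the earlier interval (adjusted p = 0.0413). The ligand BMP4 fell over the whole span from 14.4 ± 1.33 to 8.14 ± 1.94 CPM (edgeR adjusted p = 0.000804). Of the receptors, BMPR2 rose 2.75-fold and ACVRL1, also called ALK1, 2.03-fold in the earlier interval (edgeR adjusted p = 0.000663 and 0.00714). Of the inhibitors, SMAD7 rose in both intervals, to 36.8 ± 6.24 CPM from 9.90 ± 1.75 CPM (edgeR adjusted p = 0.013 and 1.44e-05), while SMAD6 fell from 23.1 ± 5.62 to 12.9 ± 2.52 CPM in the earlier one (adjusted p = 0.00549). Of the targets, ID3 rose 2.97-fold over the whole span and ID1 fell from 120.0 ± 31.3 to 73.7 ± 17.9 CPM (edgeR adjusted p = 6.82e-05 and 0.00763).

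Of 19 genes of the adrenomedullin, apelin, sphingosine 1-phosphate, nitric oxide and endothelin pathways, 2 rose and 2 fell in the earlier interval, 3 rose and 1 fell in the later one, and 7 rose and 5 fell over the whole span. The counts of the earlier interval lie below, and those of the whole span near, the shares of all genes tested. EDN1, endothelin 1, rose over the whole span from 0.233 ± 0.117 to 1.35 ± 0.581 CPM, near the floor at GD100, and its receptor EDNRB from 38.4 ± 21.8 to 87.9 ± 11.2 CPM (edgeR adjusted p = 0.000944 and 0.00182). RAMP3, an alternative partner of CALCRL, rose 3.17-fold (edgeR adjusted p = 0.0299), with 3 to 48 counts per library at GD100. KLF2, a transcription factor induced by blood flow, rose 2.95-fold in the earlier interval and stood at 9.87 ± 2.74 CPM at GD124 and 6.50 ± 2.63 CPM at GD144 (edgeR adjusted p = 0.000901 and 0.0801). SPHK1, a kinase that makes the ligand of S1PR1, fell from 3.77 ± 1.4 to 0.894 ± 0.423 CPM over the whole span (edgeR adjusted p = 0.000152). APELA, a peptide ligand of APLNR, fell from 3.76 ± 1.63 to 1.35 ± 0.459 CPM, and ADM2, a ligand of receptors built on CALCRL, from 10.3 ± 3.62 to 4.64 ± 1.73 CPM (edgeR adjusted p = 0.000947 and 0.0127).

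Of 6 genes of endothelial Wnt and growth signals, 2 rose and 0 fell in the earlier interval, 1 rose and 0 fell in the later one, and 4 rose and 0 fell over the whole span. WNT9B, a Wnt ligand of central vein and sinusoidal endothelium, had 0 counts in 1 GD100 library and stood at 0.229 ± 0.21, 0.577 ± 0.538 and 3.58 ± 1.16 CPM. Every GD144 library, at 2.34 to 5.26 CPM, lay above all others, and WNT9B rose in the later interval (log2 2.65 ± 0.62, edgeR adjusted p = 0.00446). CXCL12, a chemokine of vessel walls and stroma, rose from 36.6 ± 4.49 to 69.6 ± 12.2 CPM in the earlier interval (edgeR adjusted p = 0.00171). ACKR3, its scavenging receptor, rose 1.8-fold over the whole span (edgeR adjusted p = 0.0302). Some genes named from these further lists overlap another gene in the annotation used, and their values are uncertain in the same way. They are ANGPT2, ANGPT4, NRP1, ADM2, F8, DNASE1L3, KCNN2, CAV1, LYL1, SHANK3, BMX, EPHB4, UNC5B and CD34.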

How the data were processed

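Poly(A)-selected paired-end libraries of fetal sheep liver were sequenced, 4 at GD100, 5 at GD124 and 6 at GD144, and groups were taken from the stage label. The authors deposited 1 table of estimated counts per gene for all 15 libraries, not normalised. Per the submitters' processing notes, reads were handled with DRAGEN, which maps and quantifies reads. Build, annotation, strand setting and DRAGEN version: not given in the sources used here. Some 6.55% of the deposited estimated counts were fractional, and rounding to whole numbers moved library totals by at most 27.86 counts. No line lacked a gene name. Replicates were checked for duplicated data, with a smallest chi-square of 43.7 per degree of freedom.

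Genes passing filterByExpr were tested with edgeR 4.0.16 in R 4.3.3 (quasi-likelihood F-test, TMM, robust, 1 fit with a term per stage), with Benjamini-Hochberg adjustment over 16977 genes. The fit had a common dispersion of 0.116 (34.0% as biological coefficient of variation) and a median prior of 4.44 degrees of freedom. SE is the size of the log2 fold change divided by the square root of F. Mean log2 CPM used a prior count of 2, and ratios of gene pairs a pseudocount of 0.5. The edgeR steps were tested on simulated data in which chosen genes had set fold changes. Alternatives were DESeq2 1.42.0, RLE and total-count scaling, a filter of any count above 0, a replicate block, each library left out in turn, and replicate 1 alone standing for GD100.

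The members and lists were chosen with earlier results of these data known. Every member is named, and library values are given, per role, for up to 4 called genes per comparison with separated libraries and the largest change. Library values of STAB1, EHD3 and HEY1 are given outside that rule, after they were seen. Of each further list, up to 3 called genes per direction with the largest change are named. Named outside that rule are VEGFA, BMP10, GJA5, GJA4, EFNB2, HEY2, NR2F2, FCN3, PROCR, EPHB4, SEMA3G, UNC5B and CXCR4. Some listed names were not analysed here, among them CLEC4G, CLEC4M, FCN2, CD36, ICAM2, VCAM1, CD163, CD5L, PF4, SPINK2, KRT7 and CD3G. All 33 members matched a symbol in the RefSeq table of ARS-UI_Ramb_v3.0, which served for overlaps alone.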

Additional observations from a re-analysis of the deposited data

Results flagged for a closer look

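In each stage and for each of the 33 genes, 99 groups in all, the highest and lowest library was set against Dixon's 95% critical value for a group of its size. Chance marks about 1 in 20 groups, 4.95 of 99, and 5 were marked. PECAM1 stood at 34.4 CPM in GD124 replicate 3, above the 12.3 to 18.2 CPM of the other GD124 libraries. ENG stood at 128 CPM in GD100 replicate 4, below 175 to 180.4 CPM in the others. STAB1 stood at 44.9 CPM in the same library, below 70.0 to 75.0 CPM. GATA4 stood at 19.9 CPM in GD144 replicate 3, below 27.0 to 31.0 CPM. VWF stood at 33.6 CPM in GD100 replicate 1, above 25.6 to 26.6 CPM.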

How the results depend on the processing

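Each of the 99 gene results (33 genes in 3 comparisons) was recomputed under 21 alternatives, 2079 values in all. Of these, 1927 kept their call or the lack of one, 95 lost the call and 54 gained one. In 3, the sign changed with a call in the main fit or in the alternative. A sign change without a call in either fit counts among the 1927. APLNR from GD100 to GD124, for example, had log2 -0.07 in the main fit and ran from -0.33 to 1.21 over the alternatives. Of the calls, 5 of 12 from GD100 to GD124, 15 of 21 from GD124 to GD144 and 20 of 24 from GD100 to GD144 held in every alternative. These 3 sign changes with a call came with replicate 1 alone standing for GD100: EHD3 gave log2 0.14 and 0.22 against GD124 and GD144, and AQP1 5.03 against GD124. That fit takes the lone library to have the spread of the other stages.

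From GD100 to GD124 the 9 genes that rose became 4 with total counts alone and 4 to 11 with 1 library left out, 5 without GD100 replicate 4 and 4 without GD124 replicate 3. The 3 that fell became 1 with GD100 replicate 1 alone and 1 to 4 with 1 library left out, 1 of them without GD124 replicate 4. From GD124 to GD144, 18 to 25 rose and 0 fell with 1 library left out. From GD100 to GD144, 22 to 25 rose, and the 1 that fell, EHD3, was lost (0) with every gene above 0, with the replicate block, with GD100 replicate 1 alone and in 6 of the fits with 1 library left out, without GD100 replicate 2 or 3 or GD144 replicate 2, 3, 4 or 6 (0 to 1). The sinusoidal less continuous-vessel level with 1 library left out ran at GD100 from 2.83 to 3.17, at GD124 from 3.26 to 3.32 and at GD144 from 2.79 to 2.90, and was 3.41 at GD124 with the median of the genes in place of the mean. The cause of these differences was not tested, beyond the fewer libraries or genes that each alternative uses by construction.

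The replicate numbers did not pair the libraries: residuals of 13 same-numbered pairs correlated at -0.155 to 0.144 and those of 61 other pairs at -0.171 to 0.181, and 2 of 15 libraries correlated best with their own number. With the replicate block, 7 genes rose and 2 fell from GD100 to GD124, 15 rose and 0 fell from GD124 to GD144, and 22 rose and 0 fell from GD100 to GD144, and GD144 replicate 6 has no partner there. Depth limits SOX17 and AQP1, with as few as 2 and 1 counts in a library.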
